A study of Mus musculus with 24 samples.

Results

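The genes described here are the late cornified envelope (Lce) genes and 15 other genes of late epidermal cornification, followed in skin of mouse embryos that had lost the desmoglein 1 (Dsg1) genes. Every symbol of the count table that starts with Lce and a digit was taken, which gave 14 Lce1, 6 Lce3 and 1 Lce6 gene. The other late genes were Lor, Ivl, Kprp, Crct1, Lelp1, Tgm1, Tgm3, Tgm5, Casp14, Asprv1, Cdsn, Krtdap, Dmkn, Sbsn and Pglyrp3. Together these are 36 of the 54087 symbols in the table, and 31 of them had enough counts to be tested. The 5 that did not were Lce3a, Lce3b, Lce3d, Lce3f and Lelp1.

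RNA-Seq counts came from poly(A) RNA of dorsal skin collected late in gestation (E18.5, counted in days of embryonic life). WT embryos (Dsg1+/+) had both copies of the tandem Dsg1a, Dsg1b and Dsg1c genes, HET embryos (Dsg1+/-) had 1 copy of the cluster, and KO embryos (Dsg1-/-) had none. All were on a C57BL/6 background and of both sexes, the deleted allele came from 1 founder, and the cluster had been removed by CRISPR/Cas9 editing from the germ line, so the genes were missing in every tissue and not in keratinocytes alone. The study describes the stratum corneum as separating from the KO epidermis. The skin was whole, so levels are averages over epidermis and dermis, and fewer cells of a type cannot be told apart from less RNA per cell.

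Cornification is the last step of keratinocyte differentiation, in which granular cells replace their plasma membrane with a shell of cross-linked protein, the cornified envelope. Involucrin and the plakins form an early scaffold, loricrin makes up much of the mature envelope, and small late proteins, among them those of the Lce genes, are added to its inner face. Transglutaminases make the cross-links. Most envelope genes lie side by side in the epidermal differentiation complex, and in the mouse the Lce1 genes are commonly found in normal skin, whereas human LCE3 genes are known for their response to barrier damage.

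There were 24 libraries of 8.98 M to 20.96 M counts (M, mega). Libraries that share a number in their titles and a genotype were summed, which gave 5 replicates per genotype of 15.3 M to 33.7 M counts. The labels do not say that the numbers are embryos, so p-values measure the spread between these sums. For 8 of the 9 numbers with 2 libraries the pair differed little (chi-square per degree of freedom 1.59 to 1.86). In WT replicate 2 the libraries stood apart (15.6), and Xist, the RNA of the inactive X chromosome, was at 0.264 CPM in one and 564 CPM in the other; CPM is the count of a gene relative to the total of its library, scaled by TMM factors for library composition. By Xist these libraries do not look like the same embryo, so WT replicate 2 is a mixed sum and may not be a single animal. Values with these libraries kept apart are given below where they differ. The summed Dsg1 level was 806 ± 112 CPM in WT, 422 ± 51.5 in HET and 0.548 ± 0.343 in KO (SD, n = 5 each), with no overlap between genotypes (two-sided exact permutation test, p = 0.00794 against WT for each, the smallest that 252 arrangements allow). Keratinocyte markers were present throughout. The sum of 5 periderm keratins was 9.42 to 20.2 CPM in WT and 9.5 to 12.2 in HET, but 346 CPM in KO replicate 4 against 8.86 to 14.2 in the other KO replicates.

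Of the 36 genes, 27 lie on mouse chromosome 3 in the RefSeq annotation of GRCm38.p6. In the order of that annotation Pglyrp3, Lor, Lelp1 and Ivl come first, followed by Lce6a and a run of 12 Lce1 genes from Lce1a1 to Lce1k. Kprp separates that run from Lce1l, the 6 Lce3 genes come next, and Crct1 and Lce1m close the row. The other late genes lie elsewhere: Dmkn, Krtdap and Sbsn on chromosome 7, Tgm3 and Tgm5 on chromosome 2, and Casp14, Tgm1, Cdsn and Asprv1 on chromosomes 10, 14, 17 and 6.

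Because the mean levels of the Lce1 genes and of the tested Lce3 genes next to them differed from WT in opposite directions in KO, start regions of both groups are shown beside those of Lor and Ivl. RefSeq start regions (GRCm38.p6, 250 bases before to 50 after the start) were found for 32 of the 36 genes, and not for Crct1, Kprp, Lce1f and Pglyrp3. The windows printed run from 120 bases before the start to 10 after it, 5′ to 3′ on the strand of the gene. Capitals mark 4 motifs, which do not overlap one another in these windows: CTGTCTCA and GCATGCTT, which were picked after these regions had been read, the TATA-like ATAAAAG, and the AP-1 core TGANTCA.
Lce1a1, chr3:92648298-92648427, minus strand: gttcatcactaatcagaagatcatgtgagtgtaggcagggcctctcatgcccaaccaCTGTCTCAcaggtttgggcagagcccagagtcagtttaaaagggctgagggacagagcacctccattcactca
Lce1i, chr3:92778890-92779019, minus strand: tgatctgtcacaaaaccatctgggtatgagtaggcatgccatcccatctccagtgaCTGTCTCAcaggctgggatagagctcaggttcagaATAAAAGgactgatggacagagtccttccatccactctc
Lce1m, chr3:93019052-93019181, minus strand: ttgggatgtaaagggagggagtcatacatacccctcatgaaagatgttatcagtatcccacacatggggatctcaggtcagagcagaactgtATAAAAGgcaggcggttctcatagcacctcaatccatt
Lce3c, chr3:92944366-92944495, plus strand: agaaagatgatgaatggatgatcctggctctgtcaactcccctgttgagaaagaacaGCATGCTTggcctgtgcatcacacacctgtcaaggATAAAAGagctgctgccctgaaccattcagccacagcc
Lce3e, chr3:92966941-92967070, plus strand: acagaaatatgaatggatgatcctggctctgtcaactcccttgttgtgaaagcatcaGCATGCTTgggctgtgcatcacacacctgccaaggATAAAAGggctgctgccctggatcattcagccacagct
Lor, chr3:92083133-92083262, minus strand: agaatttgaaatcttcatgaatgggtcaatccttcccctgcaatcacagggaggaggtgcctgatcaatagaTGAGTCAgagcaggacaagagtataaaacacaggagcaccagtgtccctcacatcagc
Ivl, chr3:92573726-92573855, minus strand: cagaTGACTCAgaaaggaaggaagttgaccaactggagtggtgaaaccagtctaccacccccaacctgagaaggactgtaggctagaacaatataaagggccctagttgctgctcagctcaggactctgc

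Read on both strands over the full region, CTGTCTCA was in 11 of 13 Lce1 genes (not in Lce1l or Lce1m), in 0 of 6 Lce3 genes and in 0 of 12 other late genes, against 1.87% of the 32851 regions of the table. GCATGCTT was in 4 of 6 Lce3 genes (Lce3c, Lce3d, Lce3e and Lce3f) and in no other region of these genes, against 0.877% of all. ATAAAAG was in 10 Lce1 and 5 Lce3 genes and in 0 of 12 other late genes (5.42% of all regions). This string is narrow: the windows of Lor and Ivl hold tataaa shortly before the start without matching it. The 0 matches therefore do not mean that TATA-like letters are absent from the other late genes. TGANTCA was in 5 of the 12 other late genes, Dmkn, Ivl, Krtdap, Lor and Sbsn, and in 0 of 13 Lce1 and 0 of 6 Lce3 genes (7.81% of all regions). Another motif that was counted, the KLF-type CCACCC, is not marked in capitals. It was in 8 of 12 other late genes, 1 of 13 Lce1 genes (Lce1k) and 0 of 6 Lce3 genes (31.5% of all regions). CTGTCTCA and GCATGCTT were picked from these same regions, so their high counts follow in part from that choice. Copies within an Lce group are also alike in sequence, so their matches are not independent of each other. Matches describe the letters in these windows and were not tested as binding sites.

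KO was compared with WT to ask how late cornification genes stand once the Dsg1 genes are gone. All 14 Lce1 genes had lower mean levels in KO, with log2 fold changes of -2.65 to -1.38 and a median of -2.36, while 11 of 14 tested other late genes had higher ones, with a median of 0.33. Over all 17094 genes tested the median was -0.01 and 51.4% were below 0. Calls needed a log2 fold change of at least 1 in either direction together with an adjusted p not above 0.1. By this rule edgeR called none of the 17 tested Lce genes, although 15 of them had an unadjusted p below 0.05 (background 19.3% of all genes). In the Lce1 group the adjusted p ran from 0.102 to 0.341. The count of Lce1 calls was 11 with DESeq2 and 14 with limma-voom on the 24 libraries, where the median was -3.48. In these fits 0.532% and 0.568% of all genes were called lower. The limma-voom fit used the same correlation between libraries of a number for every gene. It also treated both libraries of WT replicate 2 as the same number. The count of Lce1 calls was 8 with the libraries of WT replicate 2 kept apart, 12 without KO replicate 2 and 6 without WT replicate 4. It was 2 without KO replicate 3 and 1 without KO replicate 5. In the order given, 0.487%, 0.493%, 0.505%, 0.503% and 0.735% of all genes were called lower. Without KO replicate 2 the median of the other late genes was 0.14, and Lor, Cdsn and Krtdap were below 0. Among the other late genes 1 was called, Pglyrp3, which was higher. The background was 0.135% of all genes called higher and 0.187% called lower.

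**Figure D1:**
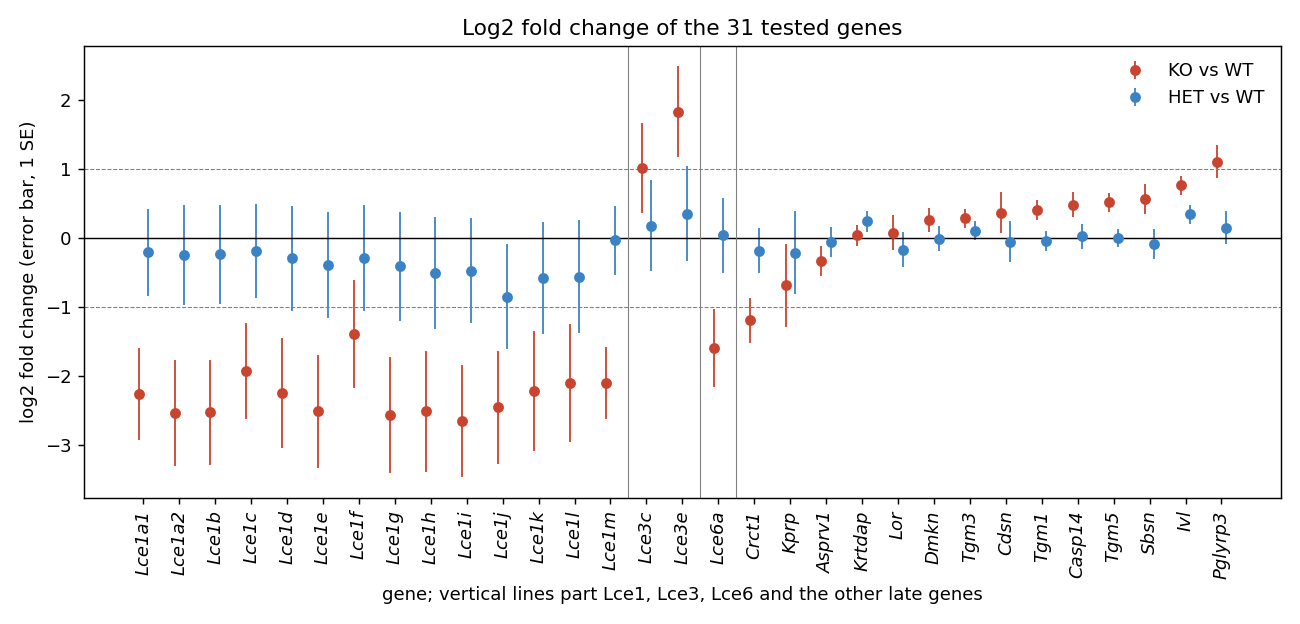
Log2 fold change (vertical axis, error bar 1 SE from edgeR) of the 31 tested genes for KO vs WT in red and HET vs WT in blue. Vertical lines part the Lce1, Lce3, Lce6 and other late genes, dashed lines mark a log2 fold change of 1 in either direction, and the 14 Lce1 genes sit between -2.65 and -1.38 in KO vs WT.

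The Lce1 group was high in WT skin. Its summed level was 4423, 3611, 3826, 3363 and 3144 CPM in WT replicates 1 to 5, and 3386, 4515, 2556, 3769 and 2119 CPM in the HET replicates. In KO it was 196, 2355, 120, 803 and 519 CPM. All KO replicates lay below all WT replicates, but they were far from alike: KO replicate 2 kept 64.1% of the WT mean, replicates 4 and 5 kept 21.9% and 14.1%, and replicates 1 and 3 kept 5.33% and 3.26%. The KO mean was 21.7% of the WT mean, or 11.1% without KO replicate 2, and the HET mean was 89.0%. Without KO replicate 4, in which the periderm keratins were high, it was 21.7%.

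Lce1m had the most counts of the group, and per kilobase of transcript it was also the highest Lce gene in WT, at 1750 CPM per kb. Its level was 1798, 1436, 1419, 1630 and 1363 CPM in WT, 1455, 1933, 1319, 1612 and 1166 in HET, and 96.8, 975, 87.2, 321 and 305 in KO. No KO replicate reached the WT or the HET range. KO against WT gave -2.10 on the log2 scale (SE 0.53, adjusted p = 0.102), which misses the limit on adjusted p. Lce1m took 41.9% ± 4.32 of the Lce1 sum in WT, 47.04% ± 5.86 in HET and 52.5% ± 13.6 in KO (SD, n = 5 each), and in KO the range of 40.0% to 72.9% overlapped that of WT.

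Lce1i had the log2 fold change farthest from 0 in the group. It was at 185.5, 135, 146.5, 88.6 and 105 CPM in WT, at 120, 134, 57.3, 118 and 47.2 in HET, and at 5.62, 71.2, 1.06, 20.7 and 6.19 in KO. KO replicate 2 came close to the lowest WT value and the other KO replicates were far under it. In the test it had -2.65 (SE 0.81, adjusted p = 0.132).

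Lce1f was the Lce1 gene nearest to 0. Its levels were 130, 102, 106, 68.1 and 75.3 CPM in WT, 87.0, 110, 49.2, 111 and 36.3 in HET, and 10.4, 113, 1.15, 44.97 and 14.9 in KO. Here KO replicate 2 lay inside the WT range, so the genotypes overlapped. Its fold change was -1.38 on the log2 scale (SE 0.78, adjusted p = 0.341).

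The other 11 Lce1 genes ranged in WT from 11.7 CPM (Lce1j) to 490 CPM (Lce1a1) and in KO from 2.12 CPM (Lce1j) to 102 CPM (Lce1a1). Over all 14 genes of the group the KO mean was 15.9% (Lce1i) to 38.3% (Lce1f) of the WT mean. For 10 of the 14 genes all KO replicates lay below all WT replicates, against 1.76% of all genes tested. The run from Lce1a1 to Lce1k and the genes that stand apart from it, Lce1l (-2.10) and Lce1m (-2.10), had similar log2 fold changes.

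Tandem copies can share reads. Of the 50-base stretches in the annotated transcripts, 0.0% (Lce1m) to 25.4% were shared between an Lce1 gene and another gene of the 36, with a median of 19.4%. The median was 39.7% for Lce3, and 0.0% for Lce6a and for each other late gene. The split of counts among Lce1 copies other than Lce1m is therefore uncertain, whereas the group sum is less touched by that split. How shared reads were counted was not given in the sources used here. If they were left out, the group sum would miss them and the share of Lce1m in it would be too high. The sum without Lce1m was 2144 CPM in WT and 441 CPM in KO (20.6%).

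**Figure D2:**
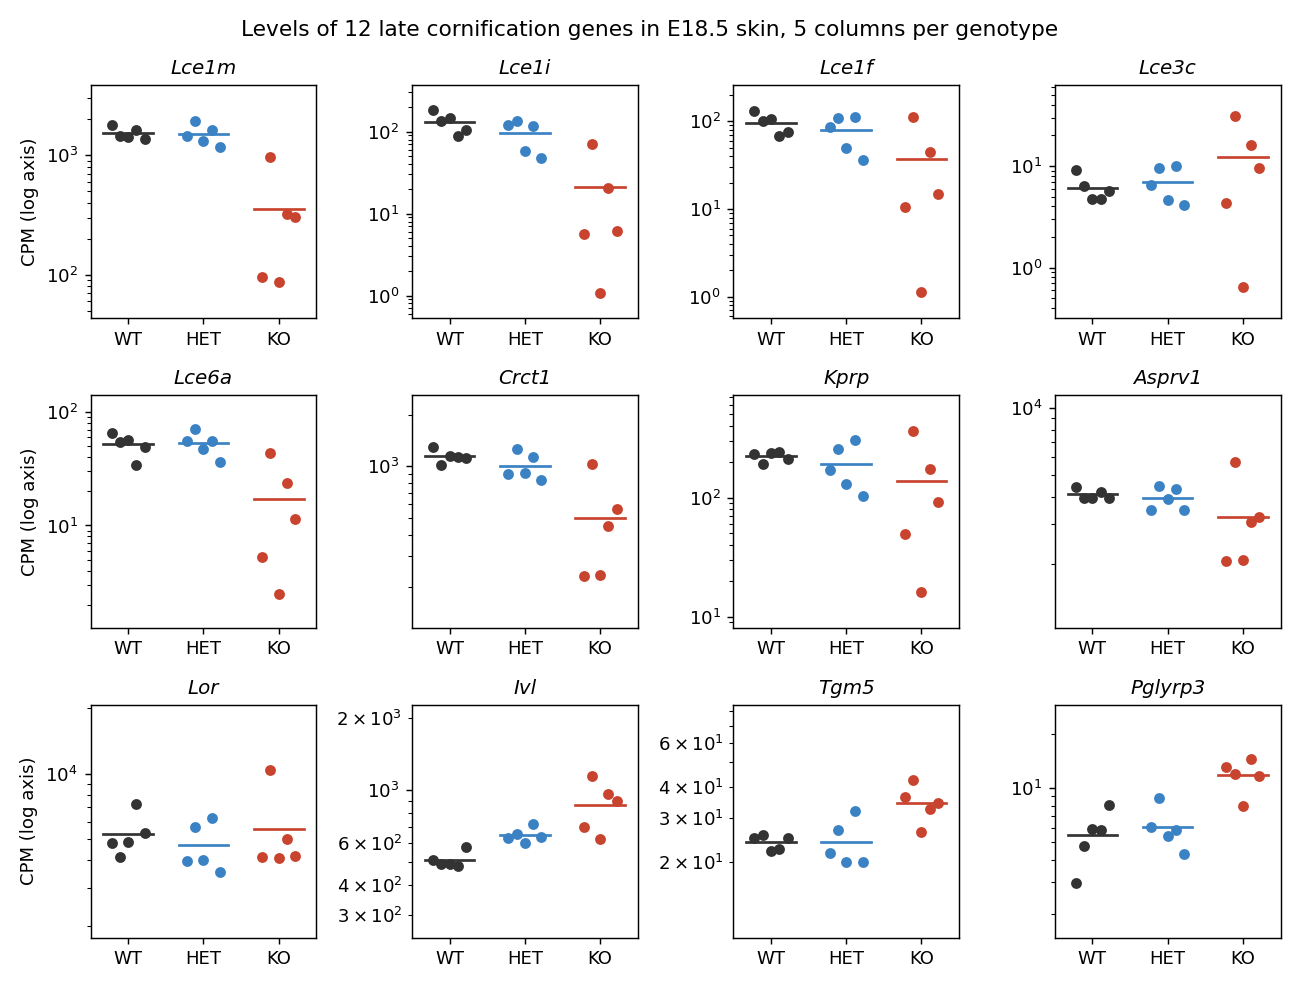
Level in CPM (logarithmic axes that differ between panels) of 12 late genes in the 5 WT, 5 HET and 5 KO replicates; points are replicates in the order 1 to 5 and lines are means. In KO, replicate 2 is the highest point for the 5 Lce genes shown and replicate 3 the lowest.

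The Lce3 genes, which lie between Lce1l and Crct1, were expressed at a small fraction of the Lce1 level. Their summed level was 10.3, 7.36, 5.79, 5.64 and 6.55 CPM in WT, 7.39, 11.1, 5.63, 11.7 and 5.22 in HET, and 6.01, 42.5, 0.766, 22.7 and 11.4 in KO. KO replicates 2, 4 and 5 were above the WT range, replicate 1 was inside it and replicate 3 was below it, so the mean of 16.7 CPM against 7.13 CPM covers replicates on either side.

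Lce3c had most of these counts, with 9.12, 6.32, 4.77, 4.77 and 5.69 CPM in WT, 6.54, 9.56, 4.64, 10.02 and 4.12 in HET, and 4.30, 31.4, 0.638, 16.1 and 9.47 in KO. The genotypes overlapped (log2 fold change 1.02, SE 0.65, adjusted p = 0.394). For Lce3e it was 1.83 (SE 0.66, adjusted p = 0.164), from 0.787 ± 0.196 CPM in WT to 2.83 ± 3.05 CPM in KO (SD, n = 5 each).

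The untested Lce3 genes had few counts. Lce3d had 2 counts over the 5 WT replicates, 1 over the HET and 129 over the KO replicates, and in KO its level was 0.391, 2.51, 0.0, 1.95 and 0.476 CPM. Lce3f had 25, 21 and 45 counts in WT, HET and KO, Lce3a had 0, 1 and 2, and Lce3b had 0 in every library. Where a gene had 0 counts, up to 3 counts are compatible with it on counting error alone.

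Set against the other Lce genes, the Lce3 group stood out in every KO replicate. Its share of all Lce counts was 0.149% to 0.230% in WT, 0.214% to 0.305% in HET and 0.623% to 2.90% in KO, with no overlap between KO and the other genotypes. The log2 ratio of the Lce3 to the Lce1 sum was -9.04 ± 0.25 in WT, -8.67 ± 0.21 in HET and -5.75 ± 0.91 in KO (SD, n = 5 each). The ratio needs no scaling between libraries, and it depends on the low Lce1 sum as well as on the Lce3 counts. In KO replicate 3 the Lce3 level itself was below WT while the ratio was above it.

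Lce6a, at the far end of the Lce1 run, had 64.6, 54.7, 56.7, 33.9 and 48.6 CPM in WT, 55.8, 70.8, 47.4, 55.8 and 35.9 in HET, and 5.23, 43.2, 2.51, 23.5 and 11.5 in KO. KO replicate 2 was inside the WT range and the other KO replicates were below it, and the fold change was -1.59 on the log2 scale (SE 0.56, adjusted p = 0.167).

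Among structural proteins outside the Lce family, loricrin is the main protein of the mature envelope. Per kilobase Lor was the highest of the 36 genes in WT, at 2966 CPM per kb, with Krtdap close to it at 2873. In HET Krtdap was the higher of these genes, at 3400 CPM per kb against 2643 for Lor. The level of Lor was 4790, 4158, 4851, 7230 and 5356 CPM in WT, 3992, 5698, 3999, 6294 and 3528 in HET, and 4153, 10403, 4108, 5032 and 4190 in KO. Only KO replicate 2 left the WT range by a wide margin, upward. The log2 fold change was 0.08 (SE 0.26, adjusted p = 0.886), and -0.27 without KO replicate 2.

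Involucrin, encoded by Ivl, is an early scaffold protein of the envelope. Its level was 511, 490, 490, 482 and 576 CPM in WT, 628, 653, 601, 722 and 635.5 in HET, and 703, 1143, 624, 962 and 898.5 in KO. All HET and all KO replicates lay above all WT replicates. The log2 fold change was 0.76 in KO (SE 0.13, adjusted p = 0.0231), under the fold limit, and 0.35 in HET (SE 0.13, unadjusted p = 0.0187, adjusted p = 1 by edgeR).

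Crct1, a small cysteine-rich gene next to Lce1m, was the other late gene with the lowest log2 fold change. It was at 1303, 1016, 1143, 1129 and 1112 CPM in WT, 906, 1255, 911, 1134 and 827 in HET, and 230, 1030, 233, 448 and 564 in KO. KO replicate 2 reached the lower WT values and the others were at or under 564 CPM. The log2 fold change was -1.19 (SE 0.33, adjusted p = 0.107), and without KO replicate 2 it was -1.63 (adjusted p = 0.00487).

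Kprp, the keratinocyte proline-rich protein gene that lies between Lce1k and Lce1l, had 222 ± 20.1 CPM in WT, 192 ± 84.2 in HET and 138 ± 138 in KO (SD, n = 5 each). In KO it ranged from 16.2 to 363 CPM, on both sides of the WT range, and the log2 fold change was -0.68 (SE 0.60, adjusted p = 0.543). Lelp1 had 2 counts in all, both in HET.

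Transglutaminases cross-link the envelope. Tgm5 had 22.1 to 25.6 CPM in WT and 26.5 to 42.5 CPM in KO without overlap, and the test gave 0.52 on the log2 scale (SE 0.14, adjusted p = 0.102). Tgm1 (0.41, SE 0.15, adjusted p = 0.169) and Tgm3 (0.29, SE 0.14, adjusted p = 0.255) overlapped between genotypes. Of the other late genes, Ivl and Tgm5 were the 2 whose KO replicates all lay above the WT replicates (background 1.61%), and 0 had all KO replicates below.

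No protease or adhesion gene of the granular layer among the 36 was called by edgeR, and 1 had an unadjusted p below 0.05 (Casp14). Casp14, a caspase of cornification, had 0.49 on the log2 scale (SE 0.18, adjusted p = 0.175). Asprv1, the skin aspartic protease, had -0.34 (SE 0.22, adjusted p = 0.392), with 2061, 5732, 2084, 3093 and 3232 CPM in KO, all outside the WT range of 3930 to 4440 CPM, 1 above it and 4 below. Cdsn, whose product corneodesmosin sits in the junctions of corneocytes, had 0.37 (SE 0.30, adjusted p = 0.499), with 298 to 1241 CPM in KO and 423 to 672 CPM in WT.

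The neighbouring genes Dmkn, Krtdap and Sbsn encode secreted products of suprabasal keratinocytes. Their log2 fold changes were 0.27 (SE 0.18, adjusted p = 0.400), 0.04 (SE 0.15, adjusted p = 0.900) and 0.57 (SE 0.22, adjusted p = 0.188).

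Pglyrp3, a peptidoglycan recognition protein gene at the edge of the complex, was the gene that passed the test. It had 2.96, 4.75, 5.91, 5.86 and 8.06 CPM in WT, 6.12, 8.82, 5.45, 5.86 and 4.31 in HET, and 13.2, 12.02, 7.96, 14.6 and 11.7 in KO. KO replicate 3 lay just under the highest WT replicate and the other 4 were above it. Its log2 fold change was 1.11 (SE 0.23, adjusted p = 0.0648). Leaving out WT replicate 1, 2 or 3 or KO replicate 1 or 4 raised the adjusted p to 0.131, 0.178, 0.146, 0.166 and 0.172, and it was 0.532 in the first title series alone.

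The KO replicates of the Lce genes spread widely. KO replicate 2 was the highest KO replicate for 30 of the 31 tested genes, Pglyrp3 being the exception, and KO replicate 3 was the lowest for 27 of 31. Over all genes tested these replicates were highest for 21.8% and lowest for 2392 of 17094. The median coefficient of variation (SD over mean) of the Lce1 genes was 27.2% in WT, 42.6% in HET and 133% in KO. For the tested other late genes it was 14.1%, 18.3% and 29.5%, and for all genes with a mean of 5 CPM or more it was 11.5%, 10.3% and 14%. Pglyrp3 went the other way, with 33.8% in WT and 20.7% in KO. The ratio of the highest to the lowest KO replicate was 25.4 for Lce1a1 and 11.2 for Lce1m, and 1.61 for Tgm5.

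The pairs of libraries of KO replicates 1, 2 and 3 gave Lce1 sums within 1.07-fold of each other, so the difference between these replicates was present in both of their libraries. After the genotype means were removed, log2 levels of every tested Lce gene followed the Lce1 sum over the 15 replicates, with Pearson correlations of 0.779 (Lce1j) to 0.996. The value was 0.956 for Lce3c and 0.941 for Lce3e, which had higher means in KO. For the other late genes it ran from 0.299 (Pglyrp3) and 0.387 (Tgm3) to 0.947 (Crct1) and 0.962 (Kprp). These are descriptions over points that share libraries, the Lce1 genes are themselves part of the sum, and KO replicates 2 and 3 are the extreme points.

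**Figure D3:**
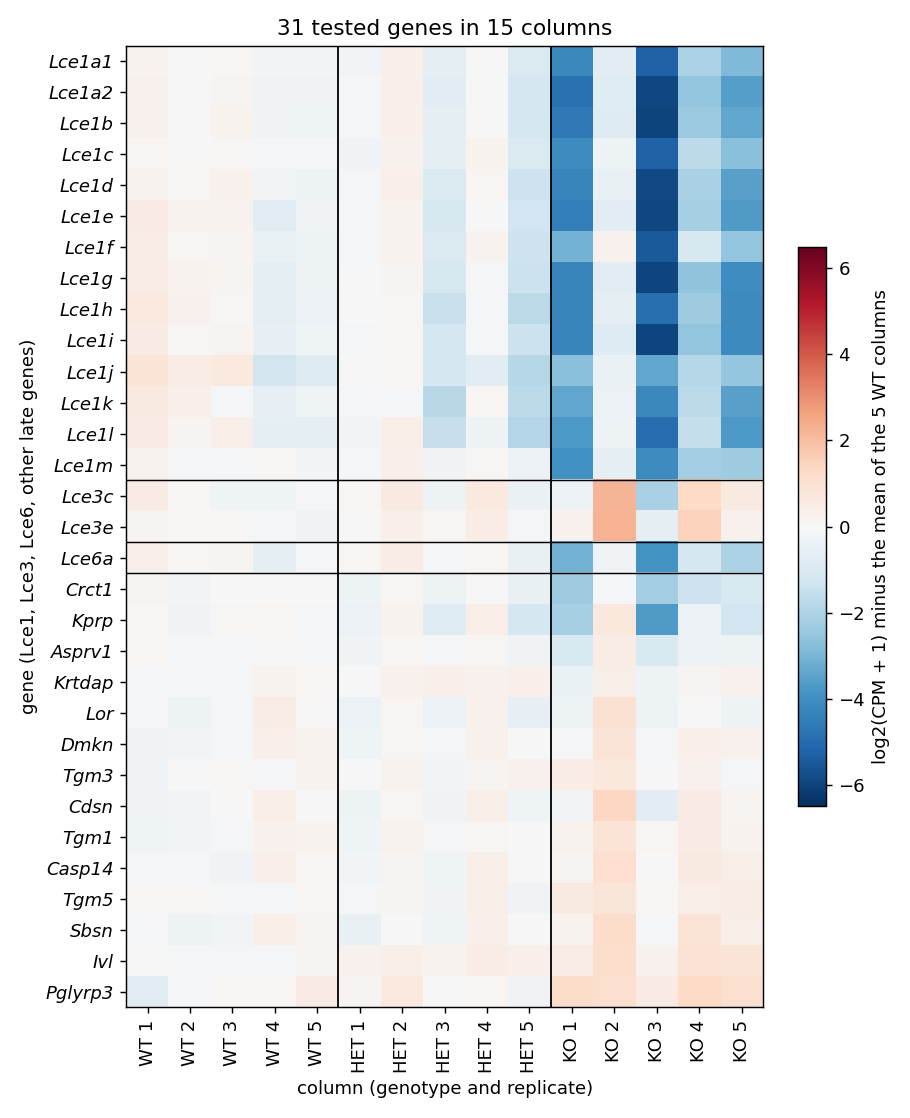
Difference of log2(CPM + 1) from the mean of the 5 WT replicates (colour, blue lower and red higher) for the 31 tested genes (rows) in the 15 replicates (columns). KO columns 1 and 3 are the bluest across the Lce1 rows and KO column 2 the palest, while Lce3c and Lce3e are red in KO columns 2 and 4.

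The Lce1 genes were then set against the other late genes within each replicate. The summed level of the other late genes was 15797 to 21874 CPM in WT, 15032 to 21169 in HET, and 13776, 31063, 13101, 18794 and 17278 in KO replicates 1 to 5. KO replicate 2 was above and KO replicates 1 and 3 were below the WT range. The KO mean was 103% of the WT mean, or 86.6% without KO replicate 2. The log2 ratio of the Lce1 sum to this sum was -2.31 ± 0.32 in WT, -2.47 ± 0.33 in HET and -5.25 ± 1.22 in KO (SD, n = 5 each). Its highest KO value, -3.72 in KO replicate 2, lay below the lowest WT value of -2.70 and the lowest HET value of -2.90. The KO mean minus the WT mean of this log2 ratio was -2.94, and it was -2.96 with Lor alone and -3.22 with Krt1 plus Krt10 as the denominator, also without overlap. The share of Lce1 transcripts in late cornification RNA was thus low in every KO replicate, including replicate 2, in which the group kept most of its level.

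**Figure D4:**
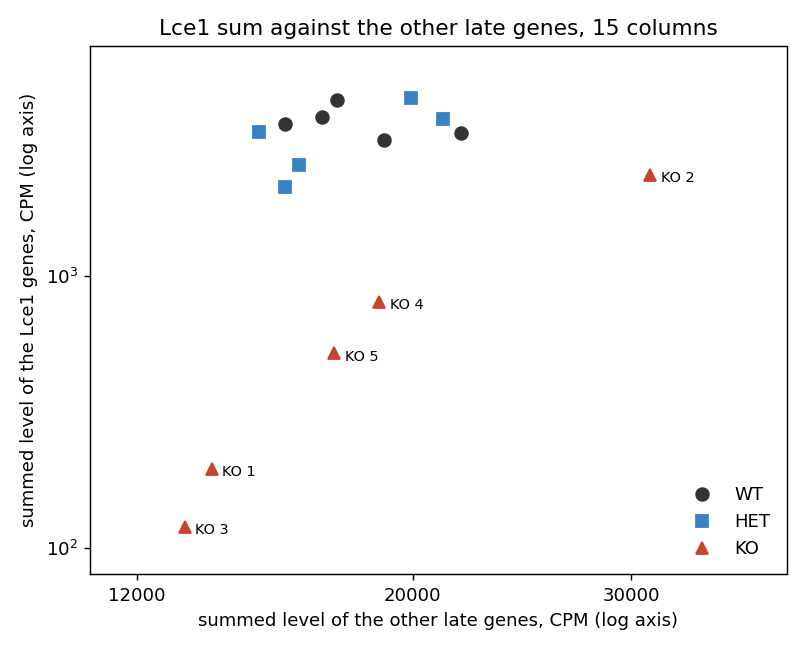
Summed Lce1 level against the summed level of the other late genes, both in CPM on logarithmic axes, for 5 WT (circles), 5 HET (squares) and 5 KO (triangles, numbered) replicates. The Lce1 sum of the KO replicates runs from 120 CPM in KO 3 to 2355 CPM in KO 2, which is above the lowest HET replicate (2119 CPM) but has the highest sum of the other late genes (31063 CPM).

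Several measures of the samples were also set beside these values. Log2 fold changes in KO were lower for short transcripts: the median was -0.13 for the 595 genes of 500 to 1000 nucleotides, a class that holds 18 of the 31 tested genes, and 0.06 for the 4669 genes of 4000 to 8000 nucleotides. The slope of log2 CPM per doubling of length was 0.1463, 0.0222, 0.0557, -0.0099 and -0.0175 in KO replicates 1 to 5. In WT it ran from -0.1053 (replicate 1) to 0.0847 (replicate 4). With the length slope of each replicate as a covariate, chosen after seeing the data, the Lce1 median was -2.06. The part of length in the spread of the KO replicates was not tested. Dermal fibroblast markers summed to 22400 to 36600 CPM in WT and 14700 to 29500 CPM in KO, with 0 of 6 called and 6 of 6 below 0, and basal keratinocyte markers to 6010 to 6800 CPM and 6030 to 7350 CPM, with 0 of 5 called. Of the 5 periderm keratins 4 were above 0 and 0 were called, with KO replicate 4 at 346 CPM. Erythroid markers were above 0 in 5 of 5, with 0 called, and summed to 1530 to 4690 CPM in WT and 2860 to 8310 CPM in KO, highest in KO replicate 3. Spinous markers outside the 36 were above 0 in 3 of 3, with 0 called and 2 having an unadjusted p below 0.05, and summed to 47900 to 68900 CPM in WT and 62100 to 88300 CPM in KO, highest in KO replicate 2. Skeletal muscle markers, 1 of 6 above 0 and 0 called, were at 11500 to 19900 CPM in WT and 8860 to 17300 CPM in KO, lowest in KO replicate 2. Hair follicle markers were above 0 in 6 of 8 and those of oral or forestomach epithelium in 2 of 4, with 0 called, the latter highest in KO replicate 4 at 35.7 CPM. The part of cell composition in the Lce1 values was not tested.

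The comparison of HET with WT addressed the loss of 1 copy. None of the 31 tested genes was called by edgeR, by DESeq2 or by limma-voom, 1 had an unadjusted p below 0.05 (Ivl), and over all genes 0.0% were called higher, 0.0% were called lower and 1.58% had a p below 0.05. The Lce1 genes had log2 fold changes of -0.85 to -0.03 with a median of -0.34 and SEs of 0.50 to 0.81, so a change of this size was not detectable with these replicates. Leaving out single replicates moved this median by over 1.5 times, to -0.53 without HET replicate 2, -0.20 without HET replicate 3 and -0.17 without HET replicate 5. The other late genes had a median of -0.02. Ivl was the 1 gene whose HET replicates did not overlap WT, upward (background 0.14%).

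KO was also compared with HET; it shares the KO replicates with the first comparison. By edgeR 0 of the 31 genes were called, 19 had an unadjusted p below 0.05 (background 16.0%), and the background of calls was 0.0819% higher and 0.0995% lower. DESeq2 called 6 Lce genes lower, Lce6a and 5 Lce1 genes, and limma-voom called 14 Lce genes lower, where 0.491% and 0.43% of all genes were called lower. The median log2 fold change was -2.03 for the Lce1 genes and 0.35 for the other late genes, and without KO replicate 2 these were -3.12 and 0.08. Lce1m had -2.07 (SE 0.53, adjusted p = 0.142) and was the only gene of the 31 without overlap between KO and HET, downward (background 1.3%). In the other direction 0 of the 31 were without overlap (background 0.954%). Pglyrp3 had 0.96 (SE 0.23, adjusted p = 0.129).

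Other genes of the envelope and of late differentiation were counted from lists. Of 24 tested envelope genes outside the 36, 21 were above 0 in KO vs WT with a median of 0.62, and 3 were called, all higher (all genes, 0.135%). These were Rptn (3.40, SE 0.54, adjusted p = 0.0231), which encodes repetin, and Sprr1b (2.99, SE 0.43, adjusted p = 0.0171) and Sprr2b (2.88, SE 0.62, adjusted p = 0.0793), which encode small proline-rich precursors. Flg, the profilaggrin gene, had 0.70 (SE 0.19, adjusted p = 0.107), and the suprabasal keratin genes Krt1 and Krt10 had 0.32 (SE 0.14, adjusted p = 0.216) and 0.23 (SE 0.13, adjusted p = 0.352). Of 19 genes of the lipid envelope, 16 were above 0 with a median of 0.28 and 0 were called by edgeR, 7 of them having an unadjusted p below 0.05 (all genes, 19.3%). Of 20 regulators of late differentiation, 18 were above 0 with a median of 0.32 and 0 were called by edgeR. Of these regulators 13 had an unadjusted p below 0.05, 12 higher and 1 lower (Maf). Grhl3 met the limit on adjusted p but was under the fold limit (0.76, SE 0.13, adjusted p = 0.0184 by edgeR). The median below -2 was thus found in the Lce1 group and in none of these lists or the other late genes.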

How the data were processed

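The deposited table held raw counts per gene symbol for 24 libraries of poly(A) RNA made with a strand-marking kit, per the labels. The submitters' processing notes name STAR and HTSeq without versions and the human build hg19; the mouse build, gene models and strand setting of the counting were not given in the sources used here. Library titles fall into 2 series of 9 and 15 libraries, and libraries of the same title number and genotype were summed to 15 columns. Genes kept by filterByExpr (17094) entered edgeR 4.0.16 and its quasi-likelihood test (R 4.3.3, limma 3.58.1; TMM factors, robust, 3 genotypes in one fit), with Benjamini-Hochberg adjustment over all of them. SEs were the fold change divided by the root of F. Levels are CPM on TMM-adjusted library sizes, and per kilobase where genes are compared. The Dsg1 sum was tested on log2(CPM + 1). Alternatives included DESeq2 1.42.0, limma-voom with number as a block, other scalings, each title series and each column left out. Values in every column are given for the tested Lce gene with the most counts in each group, the Lce1 genes farthest from and nearest to 0, called genes, Lor, Ivl, and the other late genes with the largest fold change in each direction. Scripts were tested on simulated data. The genes and lists were chosen with earlier results of these data known. Intervals of shares were not computed, and counts without molecular identifiers are not independent molecules. Sequences are from RefSeq. Of the genes ranked by likeness, 1 is not reported here.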

Additional observations from a re-analysis of the deposited data

Results flagged for a closer look

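Within each genotype, the replicate with the highest or lowest level was set against the gap to its nearest neighbour, as a share of the range of the 5 replicates, for the 31 tested genes and 4 group sums. In 9 of these 105 groups the share was above 0.71, where chance gives about 1 in 20 (5.25 groups). KO replicate 2 was the high value in 7 of them: Lor (0.853), Lce1g (0.757), Lce1h (0.739), Lce1m (0.736), Lce1a2 (0.725), Lce1i (0.721) and Lce1j (0.717). The other two were Cdsn, high in WT replicate 4 (0.741), and Krtdap, low in HET replicate 1 (0.8). These genes share libraries and the values are not independent of each other. The cause was not tested.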

How the results depend on the processing

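The median log2 fold change of the Lce1 genes in KO vs WT kept its sign under every alternative, from -3.64 (without KO replicate 2) to -1.995 (first title series alone), and that of the other late genes ran from 0.14 to 0.42. The number of Lce genes called lower did not hold. It was 0 in the test reported, 12 with DESeq2, 15 with limma-voom on 24 libraries, 14 with 24 separate libraries (which count a number more than once), 8 with number 35 as 2 columns, 1 with RLE factors, total counts or the second title series alone, and 0 to 13 when 1 replicate was left out (13 without KO replicate 2, 6 without WT replicate 4, 2 without KO replicate 3, 1 without KO replicate 5). Lce genes called higher were 1 with DESeq2, with no filter (Lce3d) and with 24 libraries (Lce3e), and 0 to 2 with 1 replicate left out. Other late genes called higher were 0 in the first title series, in a fit of the 2 genotypes, with the length covariate and at an adjusted p of 0.05, 2 with no limit on fold change, and 0 to 1 with 1 replicate left out. Other late genes called lower (Crct1) were 1 with DESeq2, limma-voom, 24 libraries, number 35 apart and the second series, and 0 to 1 with 1 replicate left out. In KO vs HET, Lce genes called lower were 6 with DESeq2, 14 with limma-voom and 14 with 24 libraries, and 0 to 11 with 1 replicate left out; called higher they were 1 with 24 libraries and 0 to 1 with 1 replicate left out. Other late genes in KO vs HET were 1 higher and 1 lower with limma-voom, 1 lower with 24 libraries, and 0 to 1 in each direction with 1 replicate left out. HET vs WT gave 0 calls throughout. Signs turned for Krtdap (-0.017 with total counts, -0.063 in the first series) and, without KO replicate 2, for Krtdap (-0.059; also -0.025 without KO replicate 5), Lor (-0.273; highest 0.22 without WT replicate 4) and Cdsn (-0.007; highest 0.552 without KO replicate 3). Of the 15 places ranked for likeness to the Lce1 sum, 7 were held without KO replicate 2. The causes were not tested. The Lce1 sum in KO was 11.1% to 26.4% of WT over the alternatives. No paired analysis was possible because the genotypes share no title number. At 0.766 CPM or less in KO replicate 3, Lce3 values rest on few counts.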

Other observations

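Genes outside the 36 were ranked by how closely log2(CPM + 1) followed the Lce1 sum over the 15 columns, among 12030 genes with a mean of 5 CPM or more. With genotype differences included, the 5 closest were Aif1l (0.986), Gramd1c (0.985), Rnf223 (0.976), Lnx1 (0.970) and Kctd4 (0.969), given as Pearson correlations that describe these columns. Aif1l was 181.5 ± 9.01 CPM in WT, 179.5 ± 33.04 in HET and 73.3 ± 44.6 in KO (SD, n = 5 each), and with Lnx1 (22.8 CPM in WT, 4.43 CPM in KO) it was called lower by edgeR (adjusted p = 0.0915 and 0.0978). Gramd1c (84 CPM in WT) had an adjusted p of 0.107. A ranking with genotype differences included favours genes that are low in KO, so these calls are not a separate result. Over all genes tested 0.187% were called lower.

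With the genotype means removed, the 5 closest were Tmem86a (0.970), Chga (0.968), RP24-341I21.3 (0.968), Sdcbp2 (0.966) and Flg2 (0.963). Flg2, a filaggrin relative, was 499 ± 38.5 CPM in WT and 517 ± 310 in KO. Its mean was thus alike, while its replicates rose and fell with the Lce1 sum. The most opposite were Ankrd10 (-0.874), Mras (-0.859), Arhgap44 (-0.854) and St3gal5 (-0.852). Of the 15 places ranked, 14 were held with a pseudocount of 0.1 CPM and 7 without KO replicate 2.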
